A study of Danio rerio with 4 samples.

Results

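Müller glia (MG) marker and filament genes were examined in whole-retina RNA-seq of zebrafish at 10 months of age, all wild type. There were 4 libraries, 1 for each condition: uninjured retina, 12 hr post-injury (hpi), 4 days post-injury (4 dpi), and 4 dpi in fish kept in 10 μM cyclopamine, an inhibitor of Smo, for those 4 days. Retinae were injured by needle poke. How many fish gave each library is not given in the sources used here, and no injured retina treated with vehicle alone was used here. With 1 library a condition there is no replicate check, and no test across samples was made.

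The genes were chosen by symbol alone: those beginning with *gfap*, *vim*, *glul*, *rlbp1*, *aqp1a*, *cahz*, *fabp7*, *cx43*, or *s100b*, and *nes*. Of the 2543 genes in any of the 6 deposited lists, 5 had such a symbol: *gfap*, *vim*, *fabp7a*, *cx43.4*, and *cx43*. The gene for nestin is written NES in the 4 dpi table and so escaped the spelling, but its Ensembl identifier, ENSDARG00000088805, is that of *nes*, and it is described here as a 6th gene. Each list is of 1 direction, higher or lower, as the authors set it against the uninjured library. A gene in no list has no value here, which does not mean that its level stayed the same.

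MG span the retina and support its neurons by clearing glutamate and ammonia, moving water and ions, and handling visual retinoids. Mature MG are recognised by enzymes and carriers such as glutamine synthetase (*glula* and *glulb*) and the retinaldehyde-binding protein (*rlbp1a* and *rlbp1b*). After damage, MG in many vertebrates raise intermediate filament proteins, GFAP and vimentin among them, and in zebrafish MG re-enter the cell cycle as MG-derived progenitor cells. Nestin is a filament protein of neural progenitors, and brain-type fatty acid-binding protein, the product of *fabp7a*, is typical of radial glia.

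The 2 filament genes *gfap* and *vim* were both listed as higher at 4 dpi, with the fatty acid carrier gene *fabp7a* and the connexin gene *cx43.4*. None of the genes chosen by symbol was listed as lower at 4 dpi, so 4 of 4 were higher. The tables for 4 dpi hold 1466 genes, 60.9% of them in the higher direction and 39.1% in the lower. All 4 had a log2 ratio of at least 2 in the higher direction, as did 49.0% of all listed genes, but *cx43.4* was at 1.85 with 1 FPKM added in place of 0.1. Levels are in FPKM, which counts fragments against transcript length and library total, and log2 ratios are of 4 dpi over uninjured with 0.1 FPKM added to each. In whole retina, more cells of a type and more RNA per cell cannot be told apart.

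*gfap*, which encodes glial fibrillary acidic protein (ENSDARG00000025301, chromosome 3, 31660726 to 31672767, minus strand, GRCz10), was at 10.2 FPKM before injury and 84.5 FPKM at 4 dpi. The 4 dpi level was 8.28 times the uninjured level, a log2 ratio of 3.04. *vim*, which encodes vimentin (ENSDARG00000010008, chromosome 24, 32236985 to 32281769, plus strand), was at 15.7 FPKM before injury and 95.6 FPKM at 4 dpi, a log2 ratio of 2.60. The levels of the 2 genes lay close to each other in both libraries, with *vim* at 1.54 times *gfap* before injury and 1.13 times at 4 dpi. Nestin (chromosome 16, 29109043 to 29119290, plus strand) was at 0.448 FPKM before injury and 6.47 FPKM at 4 dpi, a log2 ratio of 3.58. Its ratio was the largest of the 3 filament genes with 0.1 FPKM added, but with 1 FPKM added it was the smallest, at 2.37 against 2.93 for *gfap* and 2.53 for *vim*. Its level was the lowest in both libraries, *gfap* being at 22.8 times nestin in uninjured retina and 13.1 times at 4 dpi. The annotated loci of these genes overlap no other gene of the tables with values, and each has 1 annotated transcript.

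*fabp7a* (ENSDARG00000007697, chromosome 17, 15425584 to 15427954, plus strand, 3 annotated transcripts) was at 52.0 FPKM before injury and 1191 FPKM at 4 dpi. Its log2 ratio of 4.52 was the largest of the 5 genes with values, and its level was the highest of the 5 in both libraries. Among the 893 higher genes, 5 had a greater 4 dpi level, among them the apolipoprotein gene *apoeb* at 2111 FPKM. In uninjured retina, *fabp7a* was at 5.09 times the level of *gfap*, and at 4 dpi it was at 14.1 times. The increase of *fabp7a* was larger than that of the filament genes in these libraries, but the spread between libraries of 1 condition is not known.

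The rule also took in *cx43.4* (ENSDARG00000007099, chromosome 9, 46605107 to 46615368, minus strand) through its spelling. It encodes a gap junction protein, and the table of gene names gives it as *gjc4b*, so it is not the gene usually meant by connexin 43, the main connexin of astroglia. It was at 0.985 FPKM before injury and 6.15 FPKM at 4 dpi, a log2 ratio of 2.53. Its 4 dpi level was close to that of nestin, at 0.952 times. *cx43* itself (ENSDARG00000041799, named GJA1 in the table of gene names) was not in the 4 dpi tables.

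**Figure D1:**
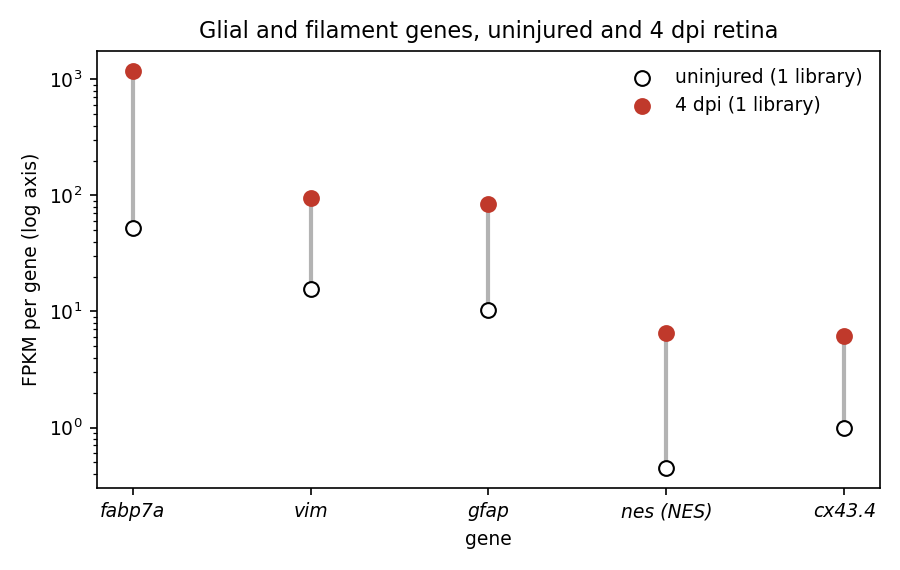
FPKM per gene (log axis) of the 5 genes with values, in the uninjured library (open circles) and the 4 dpi library (filled circles), 1 library each, joined by a line for each gene. *fabp7a* lies highest in both, *vim* and *gfap* lie close together, and *nes* and *cx43.4* have 4 dpi levels of 6.47 and 6.15 FPKM.

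Set against the other genes listed as higher, *fabp7a* ranked highest of the 5 genes by ratio and by level, and some of the others lay close together. Of the 893 higher genes, 780 had a value above 0 in uninjured retina, with a median log2 ratio of 2.52. Among these 780, *fabp7a* ranked 68th in log2 ratio, nestin 164th, *gfap* 254th, *vim* 357th, and *cx43.4* 387th. The ratios of *vim* and *cx43.4* were therefore near the median of the higher genes. These ranks and the median are with 0.1 FPKM added and were not run with 1 FPKM. With 1 FPKM added, nestin was at 2.37, below *gfap* at 2.93 and *vim* at 2.53, and *cx43.4* was at 1.85. By level at 4 dpi, among all 893 higher genes, *fabp7a* ranked 6th, *vim* 178th, *gfap* 198th, nestin 667th, and *cx43.4* 676th, and the median higher gene was at 16.2 FPKM.

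**Figure D2:**
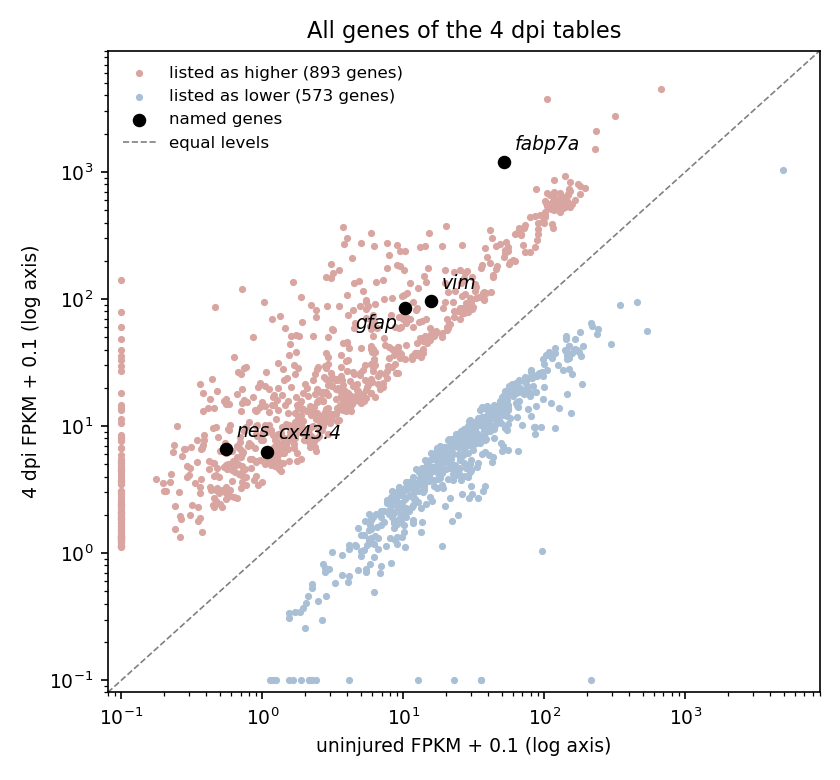
Uninjured against 4 dpi FPKM, each with 0.1 added, on log axes, for the 1466 genes of the 4 dpi tables, with the 5 genes in black and the dashed line at equal levels. All 5 lie above the line, *fabp7a* near the upper edge of the higher genes and *vim*, *gfap*, *nes*, and *cx43.4* within them. The space along the line is empty because the tables were restricted by the authors to genes past their own threshold.

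The genes nearest in pattern were taken by distance between log2 levels in the uninjured and 4 dpi libraries, 2 points per gene, over the 1466 genes. For *gfap* the nearest was *cd63*, at 10.1 and 76.8 FPKM and a distance of 0.139, followed by *si:dkey-108k21.10* and *si:dkey-108k21.27*. For *vim* the nearest were *cotl1*, *zgc:65811*, and *cd74b*, at distances of 0.323 to 0.372. For nestin they were *ckap2l*, *zgc:153631*, and *raver1*, at 0.0481 to 0.0850, and for *cx43.4* they were *orc3*, *lyn*, and *slc7a7*, at 0.0782 to 0.0975. *fabp7a* had no near neighbour. Its closest genes, the ribosomal protein genes *rplp2l*, *rps20*, and *rps12*, lay at 1.03 to 1.29, with log2 ratios of 2.71 to 3.06.

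At 12 hpi, none of the 6 genes was in either list. The 12 hpi tables hold transcripts of 605 genes, with 63.8% of them listed as higher and 36.7% as lower, some in both, and 54.7% higher by a log2 ratio of at least 2. The levels of *gfap*, *vim*, nestin, *fabp7a*, and the connexins at 12 hpi are therefore not known from these tables, and whether they differed from those at 4 dpi was not tested.

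At 4 dpi with cyclopamine, all 5 genes with a symbol of the rule were listed as higher and none as lower. Of the 1390 genes in the cyclopamine lists, 47.1% were listed as higher and 53.7% as lower, some in both. *gfap*, *vim*, *fabp7a*, and *cx43.4* were listed as higher at 4 dpi both with and without cyclopamine. *cx43* was listed as higher with cyclopamine only, and nestin without cyclopamine only. Whether the rows of the cyclopamine lists are genes or transcripts is not stated, and their threshold may differ from that of the 4 dpi tables. An effect of cyclopamine on *cx43* or nestin was therefore not tested. The 2 comparisons share the uninjured library, and the cyclopamine lists give identifiers alone, so no level in the treated retina can be set beside the untreated one. In the cyclopamine lists 12 genes are in both directions, none of them among the 6 described here.

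Most genes that the rule names were in no list, as were most genes of any kind. In all, 2543 genes were in any list, whereas the RefSeq gene table holds 49597 genes. The lists and the RefSeq table rest on different assemblies, and the table is not limited to retina. These numbers therefore give no share to set beside the counts of the rule. The RefSeq gene table holds 18 genes with a symbol of the rule, or, for the connexins, an older symbol beginning with cx43, and 6 of them were listed in at least 1 comparison. The other 12 are glutamine synthetase (*glula*, *glulb*, and *glulc*), the retinaldehyde-binding protein genes *rlbp1a* and *rlbp1b*, the water channels *aqp1a.1* and *aqp1a.2*, the carbonic anhydrase gene *cahz*, the calcium-binding protein gene *s100b*, *fabp7b*, and the vimentin-related genes *viml* and *vimr2*. Of the filament genes, the lists thus hold *gfap*, *vim*, and *nes* but not *viml* or *vimr2*. Of the others, they hold *fabp7a* and the 2 connexins but no glutamine synthetase or retinaldehyde-binding protein gene. A difference between the filament genes and the glutamine synthetase and retinaldehyde-binding protein genes was not tested, since the latter have no values here.

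Other genes known from MG were followed through a list of 33. At 12 hpi, 2 of them were listed as lower and none as higher: *slc1a2b*, which encodes a glutamate transporter, at 66.0 FPKM before injury and 16.0 FPKM at 12 hpi, and the prostaglandin D synthase gene *ptgdsb.2*, written PTGDS (1 to many) in the table, at 70.4 and 22.7 FPKM. Beside these, 17 of 53 lens genes were listed as higher at 12 hpi, from a sum of 5.06 to 556 FPKM with 13 at 0 in uninjured retina, and 2 of 10 red blood cell genes, from 54.2 to 352 FPKM. Of the cone genes, *guca1e* was listed as lower at 12 hpi, at 40.6 and 3.45 FPKM, and of the rod genes *rcvrna* was lower, at 237 and 63.6 FPKM, and *nr2e3* higher, at 11.9 and 72.3 FPKM. Of the microglia list 1 gene was higher, from 3.32 to 11.7 FPKM. Of the optic nerve list *aqp4* was lower, at 40.2 and 12.5 FPKM. In mammals *aqp4* also marks MG, but it is not in the list of 33 and so is not counted there. The part of these other cell types in the levels of *slc1a2b* and *ptgdsb.2* was not tested. Of all genes listed at 12 hpi, 63.8% were higher and 36.7% lower, some in both. At 4 dpi, 2 other genes of the MG list were listed as higher and none as lower. Of all genes listed at 4 dpi, 60.9% were higher and 39.1% lower. The list holds *abcc8* but not *abcc8b*, which was listed as lower at 4 dpi, at 164 FPKM before injury and 40.4 FPKM at 4 dpi. *apoeb*, an apolipoprotein gene expressed by both glia and microglia, was at 234 FPKM before injury and 2111 FPKM at 4 dpi, and *crabp1a*, a retinoic acid-binding protein gene, was at 31.1 and 86.8 FPKM. With cyclopamine, *apoeb*, *sparc*, *abcc8*, and *cav1* were listed as higher and none of the list as lower. Of all genes in the cyclopamine lists, 47.1% were higher and 53.7% lower, some in both.

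**Figure D3:**
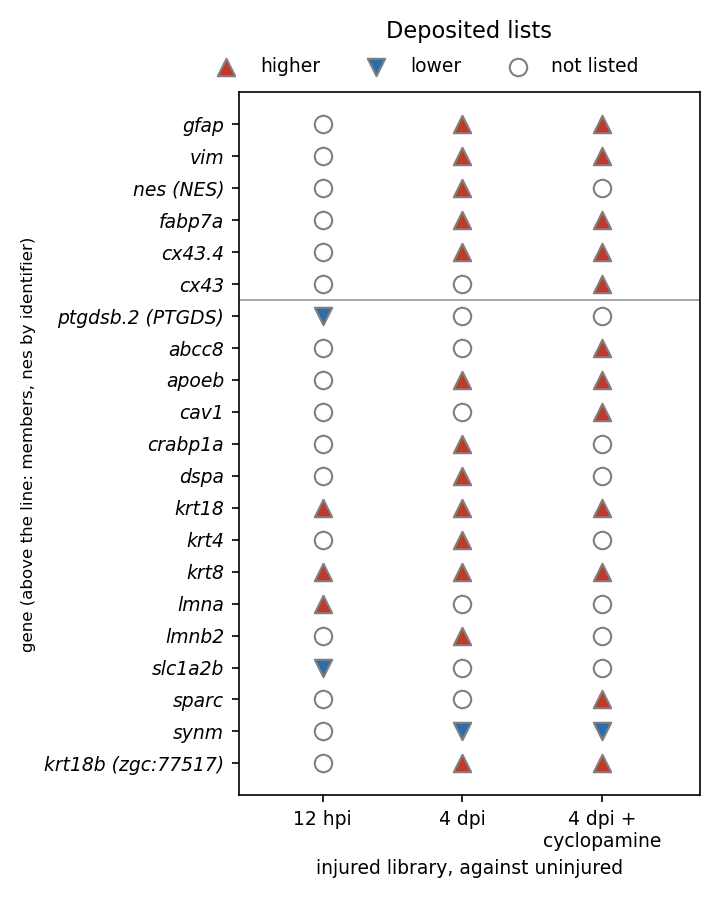
Presence in the deposited lists of the 3 injured libraries against uninjured retina: upward triangles are listed as higher, downward triangles as lower, and open circles are not listed. The 6 genes above the line have open circles at 12 hpi and, later, upward triangles or open circles. Below it are the listed genes of the other MG and other intermediate filament lists, of which *slc1a2b*, *ptgdsb.2*, and *synm* are marked lower.

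The other intermediate filament and filament-associated genes were followed through a list of 40. At 4 dpi, 6 were listed as higher and 1 as lower, with a median log2 ratio of 2.28. Of all genes listed at 4 dpi, 60.9% were higher and 39.1% lower. The epithelial keratin pair *krt8* and *krt18* was at 28.3 and 7.27 FPKM in uninjured retina and at 166 and 43.0 FPKM at 4 dpi. Unlike *gfap* and *vim*, this pair was also listed as higher at 12 hpi, where the listed transcripts had log2 ratios of 1.85 for *krt8* and 2.91 for *krt18*. A further keratin gene, *krt18b*, written zgc:77517 in the table, was at 4.41 FPKM before injury and 64.4 FPKM at 4 dpi, a log2 ratio of 3.84. *krt4*, the B-type nuclear lamin gene *lmnb2*, and the desmosomal linker gene *dspa* had log2 ratios of 2.28, 2.12, and 1.59. *lmna*, which encodes A-type nuclear lamins, was listed as higher at 12 hpi only, at 0.926 and 9.97 FPKM. With cyclopamine, 3 genes of this list were listed as higher, *krt8*, *krt18*, and *krt18b*, and 1 as lower.

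The gene of this list that was lower was *synm*. It encodes synemin, which in mammals joins vimentin and desmin filaments. It was at 63.9 FPKM before injury and 11.6 FPKM at 4 dpi, a log2 ratio of -2.45, and was listed as lower with cyclopamine as well. *iffo1b*, found through its filament domain after the tables were seen, was also lower, at 11.7 and 3.12 FPKM. In uninjured retina the level of *synm* was above those of *gfap* and *vim*, and at 4 dpi it was below them.

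**Figure D4:**
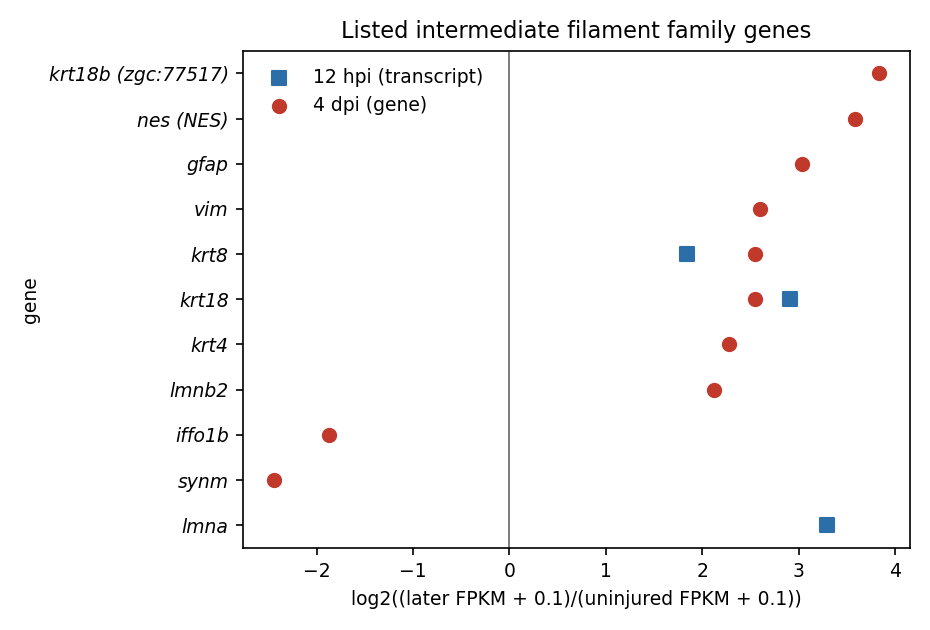
log2 ratio to uninjured retina of every listed gene whose protein carries the intermediate filament domain, for transcripts at 12 hpi (squares) and genes at 4 dpi (circles), 1 library each. At 4 dpi, 8 genes lie to the right of 0 and 2, *iffo1b* and *synm*, to the left, and at 12 hpi 3 genes, *krt8*, *krt18*, and *lmna*, lie to the right.

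Some marker lists of other cells also held genes listed as higher at 4 dpi, while others did not. Of all genes listed at 4 dpi, 60.9% were higher and 39.1% lower. Each sum below covers listed genes alone, so it must rise where all of them are higher. Of 28 microglia and macrophage genes, 13 were listed as higher, none of them at 0 before injury. Their summed level was 106 FPKM before injury and 743 FPKM at 4 dpi. Of 53 lens genes, 15 were listed as higher, from a sum of 5.49 to 274 FPKM, with 11 at 0 in uninjured retina. Of 26 proliferation gene symbols, 12 were listed as higher, *rrm2* under 2 identifiers, from 31.7 to 384 FPKM with both of these included. Of 15 genes of oligodendrocytes and optic nerve astrocytes, 3 were listed as higher, from 22.4 to 94.4 FPKM, and of 15 endothelial and pericyte genes, 2 were, from 2.46 to 27.8 FPKM. None of the 17 pigment epithelium genes or the 10 red blood cell genes was listed at 4 dpi. For retinal neurons, 3 of 23 cone genes were listed as lower at 4 dpi, from a sum of 291 to 72.5 FPKM, and 1 of 18 rod genes as higher, *nr2e3*, from 11.9 to 37.2 FPKM. With cyclopamine, 19 lens, 7 microglia, and 5 proliferation genes were listed as higher, 1 microglia gene was listed as lower, 5 cone genes were lower and 1 higher (*arr3b* in both directions), 2 rod genes and 1 red blood cell gene were lower, 1 pigment epithelium gene was higher and another lower, and none of the oligodendrocyte and optic nerve or the endothelial genes was listed. Of all genes in the cyclopamine lists, 47.1% were higher and 53.7% lower, some in both. Vimentin is also made by lens, endothelial, and immune cells. The part of these cells in the levels of *gfap*, *vim*, nestin, *fabp7a*, and the keratin genes was not tested.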

How the data were processed

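Total RNA of whole retina was sequenced from 4 libraries, 1 a condition. The submitters' processing notes name Bowtie2 2.2.2, TopHat2 2.1.0, Cufflinks 2.2.1, and the GRCz10 build, without their roles. The tables deposited by the authors give FPKM, by transcript at 12 hpi and by gene at 4 dpi, next to the value of the uninjured library, restricted to features past the authors' own threshold. Further scaling between libraries is not given in the sources used here. The columns of the authors' own fold changes, test statistics, p-values, and q-values were not used. For cyclopamine, the authors deposited 2 lists of Ensembl gene identifiers and symbols without values. These identifiers are of the same kind as those of the other tables. Fragments per library are unknown, so no counting interval is given. Coordinates are printed as the tables give them, and their first base (0 or 1) is not stated there.

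From the FPKM values, log2((later + 0.1)/(uninjured + 0.1)) was computed per gene, at 12 hpi for the transcript with the largest mean FPKM. Symbols were those of the tables, with identifiers also looked up in a table of gene names, which held all 6 genes. RefSeq gene names (assembly GRCz12tu) served only to count genes with a symbol of the rule. Genes named in the text are those chosen by symbol, the listed genes of the other MG and other intermediate filament lists, marker list genes, and the 3 nearest to each gene in pattern. *abcc8b* was added after the tables were seen. The genes and lists were chosen with earlier results of these data known. Intermediate filament and other domain families were taken from the Pfam column after the tables were seen. Alternatives were another pseudocount, matching by identifier, counting every row, and minimum levels or ratios. The steps were tested on simulated data. Python 3.11.15, pandas 2.3.3, and matplotlib 3.10.9 were used.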

Additional observations from a re-analysis of the deposited data

How the results depend on the processing

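In the absence of replicates, a shift of more than 1.5-fold was looked for. With a pseudocount of 1 FPKM in place of 0.1, the log2 ratio at 4 dpi was 1.85 for *cx43.4* in place of 2.53, and 2.37 for nestin in place of 3.58, because their uninjured levels are low. No other log2 ratio, median, or count among the alternatives run shifted by more than that. The counts of 0 at 12 hpi and in the lower lists could change only through matching by identifier. The other settings therefore say nothing about those counts. The median of *gfap* and *vim* was 2.82 and ran from 2.60 to 3.04 over its alternatives, one of which, adding nestin, was chosen after the data were seen. Adding the same amount on both sides leaves the direction of any ratio as it was, so the pseudocount settings say nothing about stability. A minimum of 1 FPKM in both libraries removed *cx43.4* from the 4 genes listed as higher at 4 dpi, leaving 3, and matching by identifier gave 5. The choice of transcript at 12 hpi was not run, since none of these genes was listed there. A second median, for the group planned as mature MG genes, was not run, since *fabp7a* alone in that group had values. That group took in *fabp7a* although its product is typical of radial glia. No paired analysis was possible because there is a single library per group.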

Other observations

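Relatives of the mature MG genes were looked up by protein domain after the tables were seen. No gene with the glutamine synthetase domain was in the 12 hpi or 4 dpi tables. At 12 hpi, 2 carbonic anhydrase genes were listed as lower and none as higher: *ca2*, at 191 FPKM before injury and 60.1 FPKM at 12 hpi, and *ca7*, at 18.4 and 3.29 FPKM. Of all genes listed at 12 hpi, 36.7% were lower. At 4 dpi, *ptprga*, a receptor phosphatase gene whose protein carries a carbonic anhydrase domain, was listed as lower, at 15.7 and 6.03 FPKM. *ca2* is a different gene from *cahz*. The water channel gene *aqp4*, which in mammals marks MG and astrocyte endfeet, was at 40.2 FPKM before injury and 12.5 FPKM at 12 hpi. *aqp4* was in neither 4 dpi table and in neither cyclopamine list. Of the genes with the lipid-binding domain that the retinaldehyde-binding protein carries, *si:dkey-186o21.1* was listed as lower at 4 dpi, at 17.8 and 5.56 FPKM, and none was in the 12 hpi tables. The part of the lens and blood cell markers that were higher at 12 hpi in these values was not tested.

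Of the lipid-binding family of *fabp7a*, also looked up after the tables were seen, 5 genes were listed as higher at 4 dpi and none as lower. Of all genes listed at 4 dpi, 60.9% were higher and 39.1% lower. At 12 hpi, 1 gene of the family was higher, *fabp11a*, and 1 was lower, *ptgdsb.2*. *fabp11a* was at 1.54 FPKM in uninjured retina, 93.6 FPKM for the listed transcript at 12 hpi, and 135 FPKM for the gene at 4 dpi. Lens genes were listed as higher at both times as well, and the part of lens cells in the level of *fabp11a* was not tested. *crabp2a*, a retinoic acid-binding protein gene, was at 0.898 and 15.3 FPKM, and *fabp3* was at 45.4 and 171 FPKM, in uninjured and 4 dpi retina. *fabp3* was in both cyclopamine lists, higher and lower.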
